A study of Mus musculus with 18 samples.

Results

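The expression level of 2 mouse chromosomes, 8 and 11, was followed across cells grown from mouse embryonic stem (ES) cells. The members were the genes that the deposited count table places on chromosome 8 or 11 and that averaged at least 5 CPM (counts scaled to a common library total) over the 18 libraries. The genes of the Hoxb cluster, which lies on chromosome 11 and holds the manipulated gene, were left out (5 genes). This rule kept 1655 of the 4542 genes of both chromosomes, 654 of 1617 on chromosome 8 and 1001 of 2925 on chromosome 11. The 17 other autosomes held 10035 genes at the same level, and 12156 of the 37224 genes in the count file passed it. The pair of chromosomes was chosen by the median log2 ratios between groups in these same libraries, where they stood apart, so those medians and the counts that go with them are a description and carry no test.

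The study measured polyadenylated RNA in 6 groups of 3 libraries, all labelled strain C57BL/6. Neuromesodermal progenitors (NMPs), cells of the embryo's tail end that can form spinal cord or paraxial mesoderm, were wild-type or Hoxb1 null. Neural progenitors differentiated from ES cells were labelled as expressing Hoxb1 or not, each with or without SAG, an agonist of Smoothened that switches on hedgehog signalling. Those expressing Hoxb1 were the cultures given doxycycline (DOX), so Hoxb1 and DOX cannot be told apart. Neural progenitor libraries with SAG carry the numbers 2533 to 2538 and those without SAG 7390 to 7395. SAG and the library set thus cannot be told apart either, while both Hoxb1 states are present within each set. NMP libraries carry the numbers 8085 to 8090. Neither the ES cell line or clone behind each group nor whether the 3 libraries of a group came from separate cultures is given in the sources used here, so p-values measure the spread between these libraries, which may be technical.

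ES cells in culture can gain a whole chromosome, and in mouse ES cells chromosomes 8 and 11 are among those known for it. When only a share of the cells carries the extra copy, the culture is a mosaic. Most genes have no mechanism that cancels an extra copy, so their RNA tends to follow the number of copies in small steps spread along the chromosome, while genes of a signalling response move one by one and by larger amounts. The question behind the comparison was whether the cultures differ in this way. For scale, 3 copies in place of 2 in every cell correspond to 0.58 on the log2 scale where RNA follows copies. DNA was not analysed here, and copy number itself was not tested. In bulk RNA, a change in a share of the cells and a change in RNA per cell cannot be told apart.

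Total counts ran from 13301476 to 26974315 per library, with the libraries with SAG the deepest. Hoxb1 itself checked the labels. Neural progenitors labelled as expressing it had 317 to 349 CPM without SAG and 596 to 634 CPM with SAG. Those not expressing it had 0.0724 to 0.668 CPM, wild-type NMPs 225 to 251 CPM and Hoxb1-null NMPs 13.7 to 15.1 CPM. The 14 NMP markers summed to 1864 to 2254 CPM in NMP libraries and 464 to 840 CPM in neural progenitors, and the 11 neural progenitor markers to 1207 to 1344 CPM against 3526 to 5817 CPM. Mesenchyme markers reached 2282 to 2492 CPM in neural progenitors with SAG, against 479 to 1064 CPM without it. Replicate 3 of the Hoxb1-null NMPs stood apart from the other 2, its counts differing from theirs with a mean chi-square over genes of 4.77 and 3.72, where those 2 differed by 2.24. Replicate 1 of the neural progenitors with Hoxb1 and SAG also stood off, at 3.53 and 2.33 against 1.47, and less so replicate 1 with SAG alone, at 3.07 and 1.84 against 1.78.

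Promoters of 4 members are shown, 2 per chromosome, because members of 1 chromosome moved together and the text returns to these genes. They were chosen after values were seen, from genes with an entry in the RefSeq promoter table (build GRCm38.p6). Each is the 150 bases before the start site, 5′ to 3′ on the gene's own strand, with matches to GGGCGG (the GC box bound by Sp1-like factors) and to TGATNNAT (a Hox-Pbx core) on either strand in capitals. Suz12 is at chr11:79992956-79993105 and Ywhae at chr11:75732737-75732886, both on the plus strand, Fat1 at chr8:44950058-44950207 on the plus strand and Elavl1 at chr8:4325101-4325250 on the minus strand.
Suz12: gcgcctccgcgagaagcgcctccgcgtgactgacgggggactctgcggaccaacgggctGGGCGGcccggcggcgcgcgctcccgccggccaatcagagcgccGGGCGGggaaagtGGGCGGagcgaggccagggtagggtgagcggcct
Ywhae: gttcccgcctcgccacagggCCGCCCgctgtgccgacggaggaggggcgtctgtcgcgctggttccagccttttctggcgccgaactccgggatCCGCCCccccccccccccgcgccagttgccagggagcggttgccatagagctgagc
Fat1: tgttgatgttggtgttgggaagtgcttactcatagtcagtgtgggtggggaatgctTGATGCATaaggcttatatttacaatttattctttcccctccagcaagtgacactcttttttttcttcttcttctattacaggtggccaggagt
Elavl1: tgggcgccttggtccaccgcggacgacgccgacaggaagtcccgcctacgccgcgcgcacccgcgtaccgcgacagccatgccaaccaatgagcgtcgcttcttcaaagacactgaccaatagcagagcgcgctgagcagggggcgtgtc
Suz12 (3 GC boxes) and Ywhae (2) are rich in CpG, Elavl1 has 20 CpG and no match, and Fat1 has no CpG and 1 Hox-Pbx match. Only the first entry of a gene in the promoter table was taken. Whether that start site is the one used in these cells was not tested, for Fat1 or the others. Over the 300 bases from 250 before to 50 after the start, GGGCGG was present in 68.9% of 431 chromosome 8 promoters, in 69.0% of 783 chromosome 11 promoters and in 68.5% of 7649 promoters of the other autosomes at the same level. It was present in 35.9% of all 27026 promoters in the table. TGATNNAT was present in 3.0%, 3.1%, 3.4% and 9.0% of the same sets. By their letters these motifs cannot overlap, and a match is a run of letters, not a bound site.

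The relative level of a chromosome in a library is the median over its members of log2(CPM + 0.5), each gene centred on the libraries of the same cell type, minus the same median over the 17 other autosomes. For chromosome 11 it was 0.073, 0.067 and 0.077 in neural progenitors without Hoxb1 or SAG. With Hoxb1 alone it was 0.069, 0.063 and 0.067, and with SAG alone -0.0080, -0.014 and -0.013. With Hoxb1 and SAG together it was -0.14 in each of the 3 libraries (mean -0.14, SD 0.0025). The libraries with Hoxb1 and SAG were thus lowest and did not overlap any other group, those with SAG alone lay between, and those without SAG were highest, with Hoxb1 and no Hoxb1 overlapping.

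Chromosome 8 had another order. It stood at 0.13, 0.14 and 0.13 in neural progenitors without Hoxb1 or SAG and at 0.070, 0.084 and 0.075 with Hoxb1 alone. With SAG alone it was -0.12, -0.11 and -0.12, and with Hoxb1 and SAG -0.083, -0.090 and -0.088. All 4 groups were separate from each other on chromosome 8, with the 2 groups without SAG high and the 2 with SAG low. Among the other autosomes no library of the neural progenitors went beyond -0.051 or 0.043, so that chromosome 8 lay outside that range in all 12 libraries and chromosome 11 in every library except the 3 with SAG alone.

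**Figure D1:**
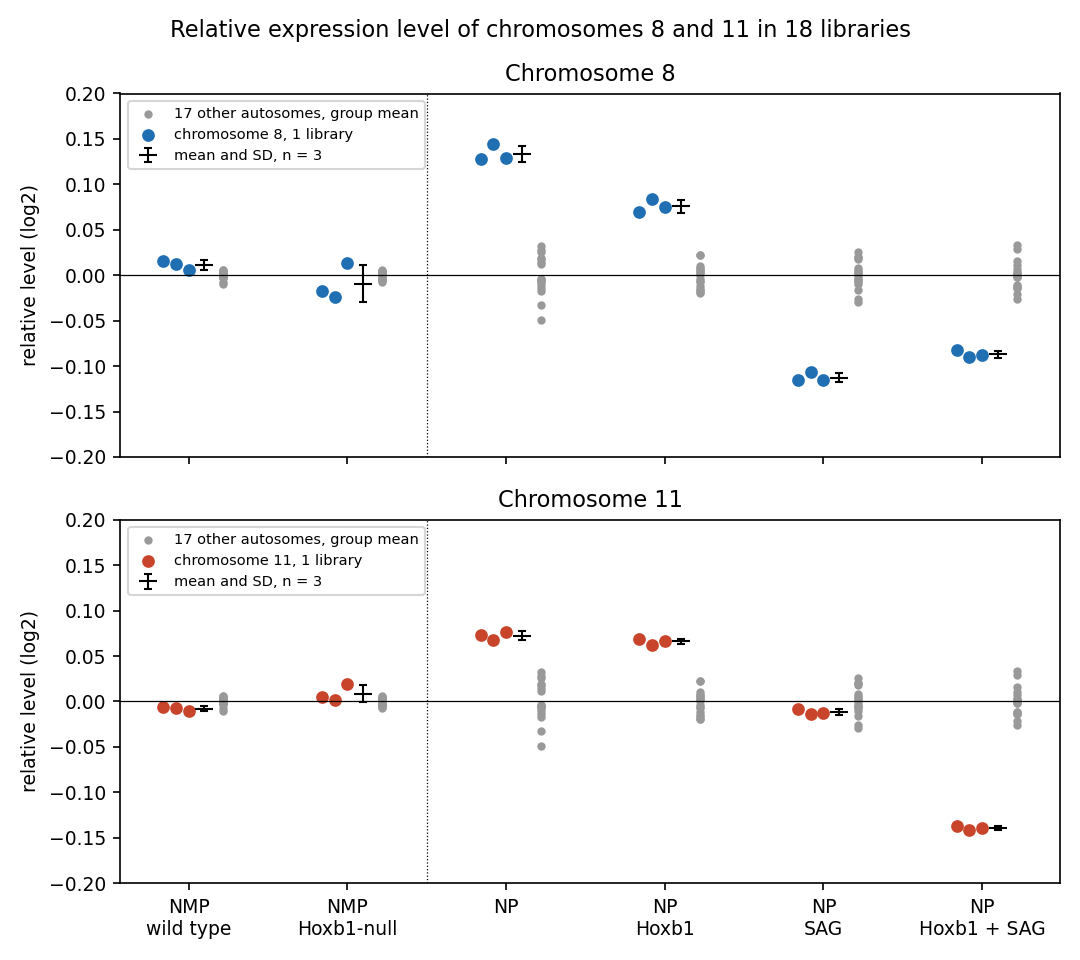
Relative level (log2) of chromosome 8 (top) and chromosome 11 (bottom) in the 18 libraries, 1 coloured point each, with the mean and SD of each group (n = 3) in black and the group means of the 17 other autosomes in grey. NMPs and neural progenitors (NP) were centred separately. Chromosome 11 is lowest with Hoxb1 and SAG (-0.14), and chromosome 8 is high without SAG and low with it.

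As a share of all counts, chromosome 11 took 11.8% of the counts in each library without Hoxb1 or SAG, 11.8% to 11.9% with Hoxb1, 11.5% with SAG and 10.6% with both. Chromosome 8 took 5.59% to 5.63%, 5.22% to 5.25%, 4.66% to 4.68% and 4.69% to 4.71% in the same order. In NMPs chromosome 11 took 9.18% to 9.40% and chromosome 8 took 4.56% to 4.72%.

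Hoxb1 with SAG against SAG alone was the comparison in which chromosome 11 stood apart most plainly, and it lies within 1 library set. The median log2 ratio of its 1001 members, minus that of the other autosomes, was -0.14, a change of -9.39%. The 17 other autosomes lay between -0.0094 (chromosome 13) and 0.013 (chromosome 16), and chromosome 8 was at 0.029, the highest of the 19. On chromosome 11, 81.4% of members lay below the median of the other autosomes, against 47.3% to 53.0% on each of the 17 other autosomes and 41.1% on chromosome 8. At an adjusted p under 0.05 (edgeR quasi-likelihood test, Benjamini-Hochberg over all genes), 567 members of chromosome 11 fell and 89 rose. Over all 16238 genes tested, 21.9% were called lower and 21.4% higher. Among genes of the 17 other autosomes at the same 5 CPM the shares were 20.01% and 25.89%. On chromosome 8 109 members fell and 211 rose.

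The step had nearly the same size in the whole distribution of chromosome 11 genes. The 10th, 25th, 75th and 90th percentiles of the log2 ratio lay -0.11, -0.14, -0.14 and -0.16 from those of the other autosomes. It was also present at each expression level, with -0.10 for 219 members at 5 to 20 CPM, -0.15 for 462 at 20 to 100 CPM and -0.16 for 320 above that. Split into 3 classes of transcript GC content, the members had -0.14 in each.

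**Figure D2:**
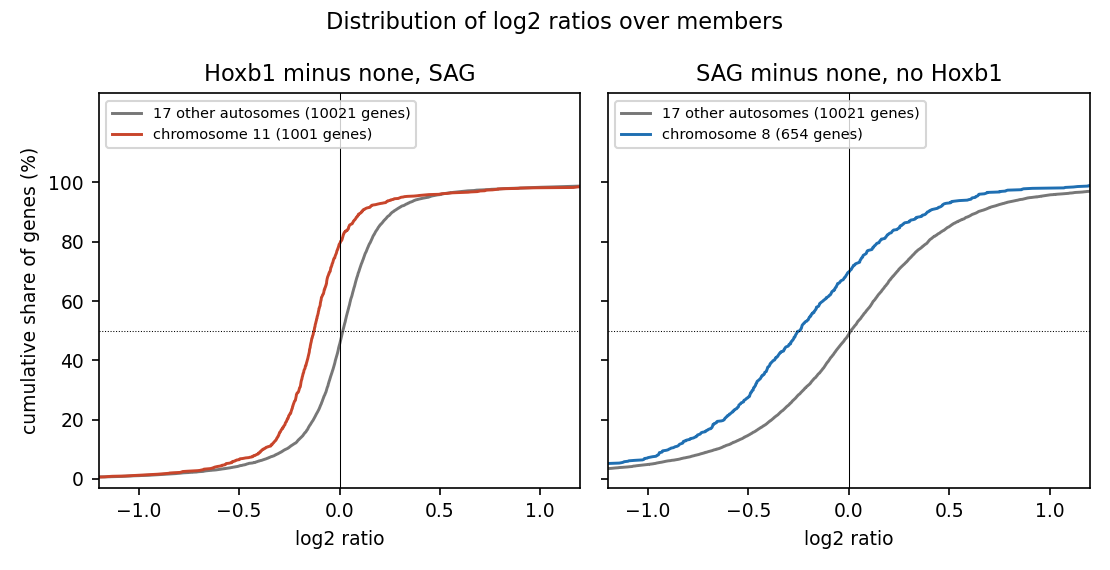
Cumulative share of genes (%) against the log2 ratio, for chromosome 11 with Hoxb1 and SAG against SAG alone (left, red) and for chromosome 8 with SAG against none (right, blue), beside the 10021 tested genes of the 17 other autosomes (grey). Each coloured curve runs to the left of the grey one over most of its height, from the 10th to the 90th percentile.

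Suz12, a core subunit of the Polycomb repressor PRC2 (ENSMUSG00000017548, chr11:79993106-80034123), stood at 292, 296 and 299 CPM with SAG and at 242, 235 and 240 CPM with Hoxb1 and SAG. The groups did not overlap, and by edgeR's quasi-likelihood test the gene fell by 0.31 on the log2 scale (SE 0.029, adjusted p = 1.16e-11). Canx, the endoplasmic reticulum chaperone calnexin, went from 1088, 1053 and 1070 CPM to 983, 896 and 948 CPM, a log2 ratio of -0.18 (SE 0.030, adjusted p = 2.25e-06), again without overlap. Ywhae, a 14-3-3 adaptor protein, had 1677, 1599 and 1660 CPM against 1531, 1426 and 1503 CPM. These groups did not overlap either. Ywhae fell by 0.15 (SE 0.029, adjusted p = 7.15e-05), which is about the step of the whole chromosome. With the chromosome's own offset taken off in the same edgeR test, an alternative chosen after seeing the data, the calls of Canx (adjusted p = 0.121) and Ywhae (adjusted p = 0.651) were lost. This offset is the chromosome's relative level in each of these same libraries. Calls of genes near the step are thus lost by construction.

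Stat3, the transcription factor downstream of interleukin-6 family receptors, was at 126, 129 and 130 CPM with SAG and at 104, 101 and 101 CPM with Hoxb1 and SAG. It fell by 0.32 (SE 0.033, adjusted p = 6.52e-11). Smaller falls that passed the same test were those of Cltc, the clathrin heavy chain (log2 ratio -0.15), Birc5, the mitotic protein survivin (-0.15), and Prpf8, a core splicing factor (-0.11), and these 3 calls were also lost with the offset taken off. Other well-known genes of the chromosome did not pass. Ddx5, an RNA helicase, was at 1200, 1214 and 1255 CPM against 1221, 1225 and 1217 CPM, which overlap. Fasn, the fatty acid synthase, was at 619, 598 and 595 CPM against 603, 593 and 608 CPM, and the tumour suppressor gene Trp53 had a log2 ratio of -0.02.

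Some members of chromosome 11 changed far beyond the step and in both directions. Atp2a3, a calcium pump of the endoplasmic reticulum, went from 37.1, 37.2 and 33.9 CPM to 2.99, 4.51 and 3.56 CPM (log2 ratio -3.28). Grin2c, an NMDA receptor subunit, went from 0.692, 0.792 and 1.27 CPM to 12.8, 14.7 and 15.1 CPM (log2 ratio 3.95). Neither gene's groups overlapped. Kcnip1, a potassium channel interactor, rose by 2.55, and Cabp7, a neuronal calcium-binding protein, rose by 2.07. Grb10, an adaptor of insulin and growth factor receptors, rose by 0.83. Foxj1, the master regulator of motile cilia, fell by 1.30, the homeobox gene Otx1 had a log2 ratio of -1.17 and the monocarboxylate transporter gene Slc16a3 one of -1.13.

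The difference ran along the whole of chromosome 11. In each of its 13 windows of 10 Mb the median of the members lay below that of the other autosomes, from -0.20 at 10 to 20 Mb to -0.066 at 40 to 50 Mb. The window at 10 to 20 Mb holds Grb10, which rose, so that single genes went against their window. Of the 219 windows of the other autosomes 49.3% lay below, and no other autosome had all its windows on 1 side, the share below running from 26.7% to 70.0%. In windows of 20 Mb chromosome 10 also had all of them below, down to -0.028, where those of chromosome 11 ran from -0.16 to -0.13.

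**Figure D3:**
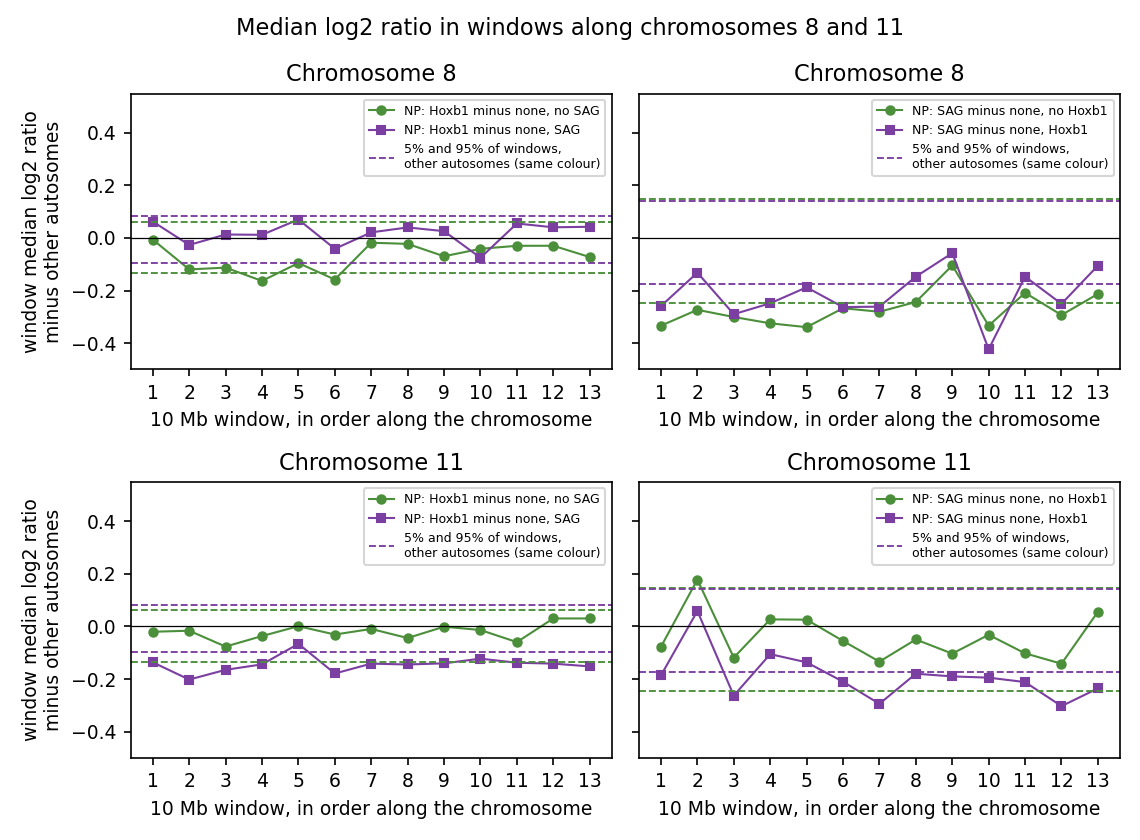
Median log2 ratio of the members in windows of 10 Mb along chromosomes 8 and 11, relative to the other autosomes, against the order of the windows; points are the Hoxb1 comparisons (left) and SAG comparisons (right) in neural progenitors, and dashed lines in the same colour mark 5% and 95% of the windows of the other autosomes. All 13 windows of chromosome 11 lie below 0 with Hoxb1 and SAG against SAG alone, and all 13 of chromosome 8 lie below 0 with SAG against none.

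Chromosome 8 in the same comparison went the other way by a small amount, with 10 of 13 windows above the other autosomes. The ratio of its summed counts had the opposite sign (-0.0053). Elavl1, the RNA-stabilizing protein HuR, was at 214, 212 and 211 CPM with SAG and at 232, 224 and 227 CPM with Hoxb1 and SAG. These did not overlap, and edgeR's quasi-likelihood test gave a log2 ratio of 0.10 (SE 0.029, adjusted p = 0.00454). Sf3b3, a subunit of the U2 snRNP, rose by 0.16. Cdh1, the epithelial adhesion molecule E-cadherin, went from 132, 130 and 126 CPM to 81.9, 74.1 and 80.5 CPM and fell by 0.72. Cpne7, a calcium-dependent membrane-binding protein, had the largest named rise, from 2.72, 3.53 and 2.80 CPM to 32.9, 39.0 and 37.5 CPM.

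Genes of the Y chromosome, which are not members, moved in this same pair of groups. Eif2s3y was at 43.0, 44.6 and 42.3 CPM with SAG and at 14.03, 15.7 and 14.7 CPM with Hoxb1 and SAG, a log2 ratio of -1.55 (adjusted p = 2.33e-25, edgeR quasi-likelihood test). Uty had -1.55 and Ddx3y -1.75, while Gm47283 had 0.53. The X chromosome lay at -0.037. Among the marker lists, 8 of 11 neural progenitor genes fell and 1 rose, and 6 of 10 neuron genes rose and 2 fell, with the neuron list at 1052 to 1081 CPM in sum with SAG and 1789 to 1853 CPM with Hoxb1 and SAG. The part of either in the chromosome 11 result was not tested.

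**Figure D4:**
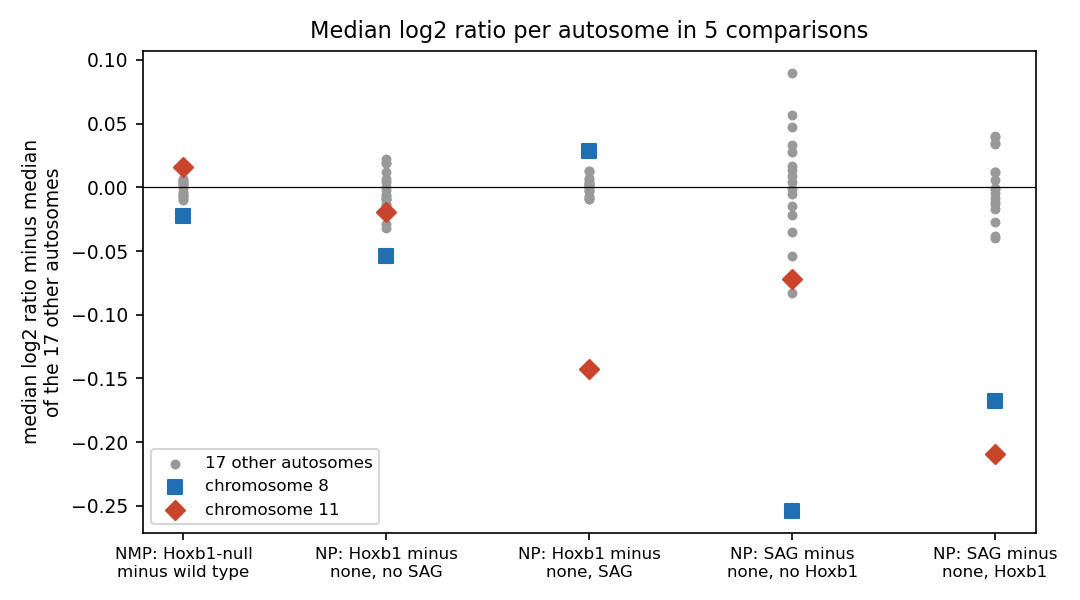
Median log2 ratio of each autosome in 5 comparisons, relative to the median of the 17 autosomes other than 8 and 11, with chromosome 8 in blue, chromosome 11 in red and the others in grey. Chromosome 11 is lowest with Hoxb1 and SAG against SAG alone (-0.14), and chromosome 8 is lowest with SAG against none without Hoxb1 (-0.25).

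Hoxb1 without SAG, within the other library set, gave a smaller picture on both chromosomes. The relative median was -0.054 on chromosome 8, a change of -3.65% and the lowest of the 19 autosomes, and -0.019 on chromosome 11. By summed counts chromosome 8 had -0.104 and chromosome 11 the opposite sign (0.00041). The others ran from -0.032 (chromosome 13) to 0.022 (chromosome 7). On chromosome 8, 208 members fell and 159 rose, and on chromosome 11 278 fell and 283 rose. Of all genes tested, 22.1% were called lower and 24.1% higher. All 13 windows of chromosome 8 lay below the other autosomes, from -0.16 at 30 to 40 Mb to -0.0061 at 0 to 10 Mb, against 10 of 13 on chromosome 11. The windows of the other autosomes ran from -0.134 to 0.063 between their 5% and 95% points. On chromosome 8 only those at 30 to 40 Mb and at 50 to 60 Mb (-0.16 each) lay outside that range.

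Slc7a5, a transporter of large neutral amino acids on chromosome 8, was at 1249, 1359 and 1404 CPM without Hoxb1 and at 283, 285 and 297 CPM with it, a log2 ratio of -2.21. Ankrd11, a chromatin regulator, went from 632, 655 and 670 CPM to 469, 460 and 458 CPM (-0.50). Pou4f2, a transcription factor of sensory neurons, went from 2.95, 2.67 and 3.77 CPM to 27.4, 28.8 and 27.4 CPM (3.15). None of these groups overlapped. On chromosome 11, Cabp7 rose from 1.03, 1.48 and 1.52 CPM to 24.8, 20.4 and 24.9 CPM (4.12). Otx1, a homeobox gene of the forebrain and midbrain, fell from 120, 123 and 114 CPM to 41.9, 39.1 and 37.4 CPM (-1.60). Fasn rose by 0.80 here, and Suz12 fell by 0.21, from 281, 289 and 287 CPM to 252, 240 and 252 CPM. Marker lists moved as well: 9 of 10 neuron and 7 of 10 mesenchyme genes were called higher, and 10 of 11 pluripotency genes and 9 of 12 NMP genes tested lower. Their part was not tested.

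SAG against no SAG, without Hoxb1, showed the largest difference on chromosome 8, but it is also a comparison of library sets. The relative median of chromosome 8 was -0.25, a change of -16.1%, and that of chromosome 11 -0.072, or -4.84%. The other autosomes spread more widely here, from -0.083 (chromosome 18) to 0.090 (chromosome 19), so chromosome 11 lay within their range and chromosome 8 outside it. Adjusted for GC content, length and level, chosen after seeing the data, chromosome 11 had -0.108. On chromosome 8, 395 members fell and 144 rose, and on chromosome 11 454 fell and 333 rose. Of all genes tested, 36.3% were called lower and 36.5% higher. The shift was -0.23, -0.25, -0.24 and -0.25 at the 10th, 25th, 75th and 90th percentiles of chromosome 8, and -0.30, -0.24 and -0.26 at rising expression levels. All 13 of its windows lay below, from -0.34 at 40 to 50 Mb to -0.10 at 80 to 90 Mb. The windows of the other autosomes ran from -0.246 to 0.147 between their 5% and 95% points, and 4 of the 13 lay within that range.

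Fgfr1, a receptor for fibroblast growth factors on chromosome 8 (chr8:25513654-25575714 in the files' coordinates), was at 666, 687 and 698 CPM without SAG and at 341, 344 and 340 CPM with it. It fell by 1.00 (SE 0.029, adjusted p = 5.33e-29, edgeR quasi-likelihood test). Fat1, an atypical cadherin, went from 686, 716 and 689 CPM to 247, 278 and 265 CPM (log2 ratio -1.40), and the insulin receptor gene Insr fell by 0.83. Each of these was far from overlapping. Elavl1 fell by 0.15, less than the median of its chromosome. Against that direction, Calr, the chaperone calreticulin, rose from 337, 324 and 315 CPM to 545, 484 and 501 CPM, Cdh1 rose by 0.86 and Hmgb2, a chromatin protein of dividing cells, rose by 0.78.

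On chromosome 11 the SAG comparison had large changes both ways. Car4, a carbonic anhydrase, rose from 3.09, 3.04 and 2.61 CPM to 69.1, 64.2 and 62.2 CPM (log2 ratio 4.48), and Lhx1, a LIM homeobox factor of early interneurons, fell from 74.8, 79.1 and 73.5 CPM to 12.1, 14.8 and 14.2 CPM (-2.46). Suz12, Canx and Ywhae did not pass the test, with log2 ratios of 0.05, -0.04 and -0.04. All 10 neuron markers fell and all 10 mesenchyme markers rose between these groups, and their part was not tested.

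With Hoxb1 present, SAG against none set both chromosomes low. The relative medians were -0.17 on chromosome 8 and -0.21 on chromosome 11, changes of -10.99% and -13.5%, while the others ran from -0.040 (chromosome 1) to 0.041 (chromosome 10). On chromosome 8, 347 members fell and 170 rose, and on chromosome 11 572 fell and 235 rose, where 35.8% of all genes were called lower and 36.4% higher. All 13 windows of chromosome 8 and 12 of 13 on chromosome 11 lay below. Stat3 fell from 177, 175 and 175 CPM to 104, 101 and 101 CPM (log2 ratio -0.78) and Prpf8 by 0.59, and on chromosome 8 Fat1 fell by 1.05. Of the marker lists, 11 of 11 pluripotency and 9 of 10 mesenchyme genes rose, and 10 of 11 neural progenitor and 8 of 10 neuron genes fell. On the Y chromosome Eif2s3y had a log2 ratio of -1.46, Uty -1.27 and Ddx3y -1.51. The part of these was not tested. The 4 comparisons among neural progenitors share groups, so they are not independent of each other.

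The difference between the Hoxb1 effects with and without SAG was -0.11 on chromosome 11, the lowest of the 19 autosomes, and 0.075 on chromosome 8, the highest. The others lay between -0.031 (chromosome 15) and 0.038 (chromosome 12). Hoxb1 RNA stood at 317 to 349 CPM without SAG and at 596 to 634 CPM with it. The 2 effects were thus not taken at an equal level of Hoxb1. By the interaction term of the same edgeR fit, 399 members of chromosome 11 had a lower effect with SAG and 89 a higher one, against 103 and 215 on chromosome 8. Of all genes, 18.6% were called lower and 16.8% higher. Among genes of the 17 other autosomes at the same 5 CPM the shares were 20.4% and 19.7%.

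In NMPs, Hoxb1 null against wild type, both chromosomes lay close to the rest, with chromosome 8 the lowest of the 19 autosomes. The relative level of chromosome 8 was 0.016, 0.012 and 0.0055 in wild-type libraries and -0.017, -0.024 and 0.014 in null ones, and the groups overlap through null replicate 3. That of chromosome 11 was -0.0058, -0.0073 and -0.011 against 0.0050, 0.0013 and 0.019, which do not overlap. The relative median log2 ratio was -0.022 on chromosome 8 and 0.016 on chromosome 11, and the others ran from -0.0098 (chromosome 17) to 0.019 (chromosome 12). On chromosome 8, 116 of 645 members tested fell and 81 rose, and on chromosome 11 135 of 993 fell and 153 rose. Over the 15032 genes tested, 13.9% were called lower and 14.9% higher. Genes of the 17 other autosomes at the same 5 CPM had 15.96% lower and 14.03% higher. By single autosome these shares ran from 10.90% to 22.01% lower and from 11.63% to 17.21% higher. Chromosome 8, with 17.98% and 12.56%, lay within both ranges, as did chromosome 11, with 13.60% and 15.41%. Without null replicate 3 the chromosome 11 median was 0.0084, and without wild-type replicate 2 the called members of chromosome 8 were 69 lower and 53 higher and those of chromosome 11 89 lower. By summed counts chromosome 8 had the opposite sign (0.025).

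Single members moved much more in NMPs than the chromosomes did. On chromosome 11, Lgalsl, a galectin-like protein, went from 32.9, 32.9 and 33.7 CPM to 70.6, 74.6 and 71.4 CPM (log2 ratio 1.12), and Col1a1, the main chain of type I collagen, from 17.2, 17.5 and 16.7 CPM to 38.5, 37.0 and 36.2 CPM (1.12). On chromosome 8, Tenm3, a teneurin that guides neuronal wiring, fell from 74.6, 76.4 and 73.1 CPM to 43.3, 49.7 and 52.5 CPM (-0.62). Nrp1, a receptor for semaphorins and VEGF, rose from 7.82, 6.54 and 6.41 CPM to 11.7, 12.5 and 12.8 CPM (0.84). All 4 were without overlap. Of 14 NMP markers 11 fell and 2 rose, and of 10 pluripotency markers tested 8 rose. Eif2s3y of the Y chromosome rose by 1.29 and Ddx3y by 0.77. The part of these in the chromosome values was not tested.

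Subunits of large complexes make a useful view, because the genes of 1 complex lie on many chromosomes and tend to be expressed together. In Hoxb1 with SAG against SAG alone, the 63 genes of 18 lists on chromosome 11 had a relative median of -0.12, and 36 fell and 3 rose. The 513 genes of the same lists on the other autosomes had 0.018, with 47 lower and 130 higher, and the 32 on chromosome 8 had 0.0047. The mitochondrial ribosome had 11 genes on chromosome 11 at -0.20, of which 8 fell and none rose, against -0.041 for 61 elsewhere. Mrpl38 fell by 0.27 and Mrpl12 by 0.24, and Mrps23 had -0.04 and did not pass.

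The proteasome list had 10 genes on chromosome 11 at -0.14, of which 7 fell, against -0.017 for 33 elsewhere. Among them Psmd11, a lid subunit, fell by 0.20 and Psmb6, a catalytic subunit, by 0.17, while Psmc5, a base ATPase, had 0.08 and did not pass. Of the 7 Mediator genes there, Med9 fell by 0.33 and Med7 by 0.26, and Med1 had 0.05. The cytosolic ribosome had 5 genes at 0.0015, with Rpl23 higher by 0.09, against 0.11 for 63 elsewhere, of which 39 rose. Smarcd2, of the SWI/SNF chromatin remodeller, went the other way and rose by 0.54. For Hoxb1 without SAG the same 10 proteasome genes had -0.15, with 6 lower and 1 higher, against -0.053 elsewhere. Chromosome 11 as a whole was at -0.019 in that comparison. Its 63 genes of all lists had -0.030, with 17 lower and 14 higher.

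In SAG against none without Hoxb1 the lists as a whole rose, by 0.23 for the 513 genes elsewhere, 0.13 for the 63 on chromosome 11 and 0.11 for the 32 on chromosome 8. Of the latter 18 rose and 8 fell, among which Aars, the alanyl-tRNA synthetase, fell by 1.22. In the NMPs the same 3 sets had 0.0071, 0.011 and -0.015. The lists were matched by symbol prefix and so hold some regulators, such as Psmc3ip.

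**Figure D5:**
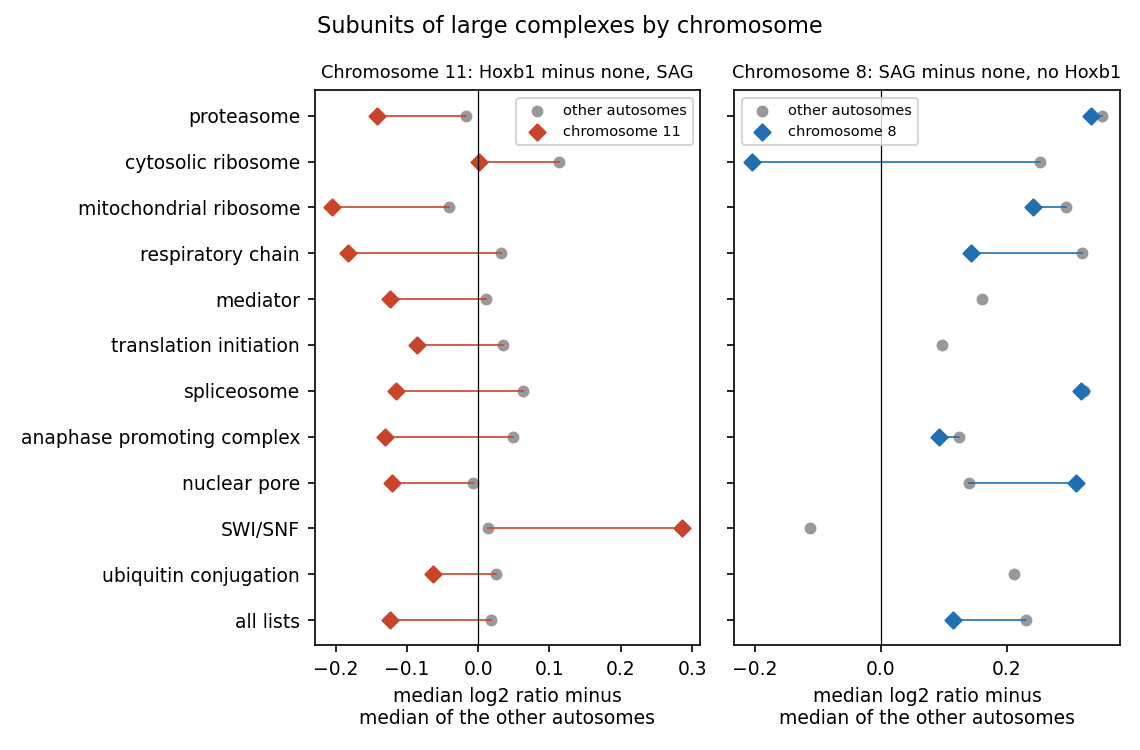
Relative median log2 ratio of the subunits of each complex list with at least 2 genes on chromosome 11. Chromosome 11 is shown in Hoxb1 with SAG against SAG alone (left, red), with the same list on the other autosomes in grey. Chromosome 8 is shown in SAG against none without Hoxb1 (right, blue), where at least 2 genes of these lists lie on it. Left out of both panels are replication (0.38 for 5 genes on chromosome 8 in the right-hand comparison, 0.47 elsewhere), the aminoacyl-tRNA synthetases (-0.17 for 4, -0.23 elsewhere) and the proton pump (-0.047 for 2, 0.067 elsewhere). For Hoxb1 with SAG against SAG alone, the mitochondrial ribosome genes on chromosome 11 lie at -0.20 and those elsewhere at -0.041.

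The levels can also be set against wild-type NMPs, an alternative chosen after seeing the data. Both the cell type and the range of library numbers differ there, and these cannot be told apart. Chromosome 11 was then 36.4% higher than in wild-type NMPs in neural progenitors without Hoxb1 or SAG, 32.9% higher with Hoxb1, 27.7% higher with SAG and 15.8% higher with both. Chromosome 8 was 18.1% and 11.6% higher in the first 2 and at -0.0084 and 0.030 on the log2 scale in those with SAG. On that scale the other autosomes ran from -0.12 to 0.13 in neural progenitors without Hoxb1 or SAG, and chromosome 11 was at 0.45.

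The limit of 5 CPM fell between Has3 (5.25 CPM on average) and Tcim (4.87 CPM) on chromosome 8 and between Itga2b (5.09 CPM) and Chac2 (4.81 CPM) on chromosome 11. All members were tested in the neural progenitors, and 645 and 993 of them in the NMPs, where the others did not pass the filter on low counts.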

How the data were processed

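The 18 RNA sequencing libraries, 3 per group, were analysed. The authors' deposited table holds raw counts per gene, made with featureCounts 1.4.6 on mm10 after bcl2fastq 1.8.2, per the submitters' processing notes. No source used here gives the strand setting or annotation release, so reads of overlapping or antisense genes cannot be told apart. Symbols were matched for 35449 of 37224 gene identifiers, and 1775 had none. Promoters came from RefSeq's table for GRCm38.p6.

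From the counts, edgeR 4.0.16 (R 4.3.3, limma 3.58.1) was run with its filter on low counts, TMM scaling and the quasi-likelihood test with robust dispersion, and p-values were Benjamini-Hochberg adjusted over all genes with a threshold of 0.05. The 6 NMP and 12 neural progenitor libraries were fitted apart (15032 and 16238 genes). CPM values of genes are TMM-scaled, and levels used log2(CPM + 0.5). The relative median is a chromosome's median log2 ratio minus that of the members of the 17 other autosomes at the same 5 CPM, and windows of 10 Mb needed at least 10 members. Scripts were tested on simulated data. Total counts per library limit the precision of low genes, and p-values cover the spread between libraries.

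The members and gene lists were chosen with earlier results of these data known. Named genes are, per chromosome, those with the largest called rises and falls without overlap, where the higher group reached 10 CPM (3 and 3 in NMPs, 2 and 2 per Hoxb1 comparison, 1 and 1 per SAG comparison), the 3 of highest CPM, a hand-written list, the most abundant gene of the extreme windows, the genes next to 5 CPM and the 3 most abundant complex subunits. Predicted genes were passed over. Complex subunits and markers beyond these were named after their values were seen. Alternatives were other scalings (upper quartile, DESeq2 1.42.0 size factors, TMM from the other autosomes), DESeq2's own test, filters, CPM limits, pseudocount, means, summed counts, protein-coding genes, 20 Mb windows, a replicate block, all 18 libraries in 1 fit and leaving out each library. Adjustment for GC content, length and level, a chromosome offset and centring on wild-type NMPs were added after seeing the data.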

Additional observations from a re-analysis of the deposited data

Results flagged for a closer look

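Chromosome 8 went in opposite directions with Hoxb1 in the 2 library sets, at -0.054 without SAG and 0.029 with SAG. Libraries with and without Hoxb1 did not overlap in either set, and the difference between the sets was not tested for the chromosome as a whole. By summed counts the values were -0.104 and -0.0053, which are not opposite. Hoxb1 RNA itself was higher in the set with SAG.

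By the interaction term of edgeR's quasi-likelihood test, the Hoxb1 effect was lower with SAG than without it, on the log2 scale, for Cabp7 (-2.05), Atp2a3 (-1.997), Car4 (-1.42), Crhr1 (-1.34), Slc16a3 (-1.13), Cdh8 (-1.10), Sox1ot (-1.07), Lhx1 (-1.05), Dusp4 (-0.95), Has3 (-0.95). Smaller differences in the same direction were those of Fasn (-0.80), Col1a1 (-0.64), Lgalsl (-0.51), Cdh1 (-0.50), Foxj1 (-0.47), Stat3 (-0.43), Birc5 (-0.38), Aurkb (-0.35), Trim67 (-0.34), Top2a (-0.34). The smallest called ones were those of Calr (-0.29), Lamp1 (-0.27), Grb2 (-0.20), Canx (-0.16), Cltc (-0.16), Cct4 (-0.15), Rack1 (-0.15), Sf3b3 (-0.11).

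The effect was higher with SAG for Grin2c (1.795), Slc7a5 (1.57), Gpt2 (1.31), Stc2 (1.09), Kcnip1 (1.02), Calb2 (0.83), Nrp1 (0.77), Aars (0.75), Cpne7 (0.69), Grb10 (0.65). Smaller differences in that direction were those of Tcim (0.65), Nrg1 (0.60), Ankrd11 (0.54), Otx1 (0.43), Fat1 (0.35), H3f3b (0.34), Ddx5 (0.17), Fgfr1 (0.16), Cnot1 (0.14), Elavl1 (0.12). These genes were taken from the named ones because the term was called at an adjusted p under 0.05, and each shares its 4 groups with the others. The call of Sf3b3 was lost under DESeq2 (adjusted p = 0.0513), with no filter on low counts, in 1 fit of all 18 libraries and in most fits without 1 library, and that of Elavl1 with no filter (adjusted p = 0.0667) and in several fits without 1 library. Trim67 lost its call in 1 fit of all 18 libraries (adjusted p = 0.165), and Cltc, Cnot1 and Tcim each in 1 fit without 1 library. With each chromosome's own offset taken off, chosen after seeing the data, the calls of Cct4, Canx, Rack1, Cltc, Grb2, Fgfr1, Cnot1 and Elavl1 were lost, with adjusted p from 0.147 to 0.67. The offset comes from these same libraries, so differences near the chromosome's median are removed by construction.

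Genes of the Y chromosome, which belong to no comparison of the chromosomes above, had a relative median of -1.56 in Hoxb1 with SAG against SAG alone.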

How the results depend on the processing

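Upper-quartile scaling, DESeq2 size factors and TMM factors from the other autosomes shift all chromosomes alike, so they bear on the calls and not on the relative medians, and the counts of called members stayed within 1.5 times under them. With no filter on low counts, a stricter filter, DESeq2's own test and 1 fit of all 18 libraries, the medians kept their direction and the counts stayed within that range. The same held for the replicate block, where chromosome 11 had -0.14 in Hoxb1 with SAG against SAG alone. Replicate numbers are shared by the groups, and same-numbered libraries correlated at -0.087 to 0.33. All 3 pairs exceeded 0.1 in 0 of 7 group pairs. Between SAG alone and Hoxb1 with SAG, however, replicates 1 and 2 correlated at 0.33 and 0.31 and replicate 3 at 0.020. Whether the libraries of these 2 groups were paired is thus not known.

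The median over members that were not called was smaller. On chromosome 11 it was -0.036 for Hoxb1 with SAG, -0.0031 for Hoxb1 without SAG, -0.0076 for SAG without Hoxb1, -0.015 for SAG with Hoxb1, -0.037 for the difference of the Hoxb1 effects and 0.0084 in NMPs. On chromosome 8 the first 5 were 0.013, -0.012, -0.0092, -0.020 and 0.024. This follows from taking out the genes that moved most.

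The ratio of summed counts, which weights genes by their counts, gave in the same order -0.128, 0.00041, -0.055, -0.184, -0.129 and 0.031 on chromosome 11 and -0.0053, -0.104, -0.282, -0.184, 0.099 and 0.025 on chromosome 8. It thus reversed chromosome 11 for Hoxb1 without SAG, and chromosome 8 for Hoxb1 with SAG and in NMPs. The mean over members gave -0.127, -0.0050, -0.194 (SAG with Hoxb1) and -0.122 (difference) on chromosome 11 and 0.011 (Hoxb1 with SAG), -0.179 (SAG with Hoxb1) and 0.068 (difference) on chromosome 8.

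With adjustment for GC content, length and level, added after seeing the data, chromosome 11 had -0.147, -0.028, -0.108, -0.213 and -0.103, and chromosome 8 had 0.023 (Hoxb1 with SAG), -0.246 (SAG without Hoxb1), -0.150 (SAG with Hoxb1) and 0.086 (difference). With protein-coding members the values were -0.149 (Hoxb1 with SAG), -0.213 (SAG with Hoxb1) and -0.128 (difference) on chromosome 11 and -0.262 (SAG without Hoxb1) and -0.162 (SAG with Hoxb1) on chromosome 8. At 1 CPM, SAG with Hoxb1 had -0.207 on chromosome 11 and -0.177 on chromosome 8, and the difference -0.111 on chromosome 11. At 20 CPM chromosome 11 had -0.152, -0.083 (SAG without Hoxb1), -0.229 and -0.126 (difference), chromosome 8 had -0.157 for SAG with Hoxb1, and 58 members of chromosome 11 rose for Hoxb1 with SAG. The levels at 20 CPM were 0.080, 0.076 (Hoxb1) and -0.147 (Hoxb1 and SAG) on chromosome 11, and 0.122 without either and -0.083 with both on chromosome 8. A pseudocount of 2 gave -0.133 and -0.082 with both. In windows of 20 Mb, 100% lay below on chromosome 11 for SAG with Hoxb1, and 0% on chromosome 8 for Hoxb1 with SAG and for the difference. At that width other autosomes were one-sided too. For Hoxb1 with SAG 100% lay below on chromosome 10. The share was 0% on chromosome 15 for SAG without Hoxb1, on chromosome 19 for SAG with Hoxb1 and on chromosomes 12 and 16 for the difference.

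Centred on wild-type NMPs, also added later, chromosome 11 had 0.35 (SAG), 0.21 (both), 0.45 (neither) and 0.41 (Hoxb1), and chromosome 8 -0.0084, 0.030, 0.24 and 0.16. With each chromosome's own offset taken off, added later too, the members called higher and lower on chromosome 11 were 229 and 225 for Hoxb1 with SAG and 199 and 218 for the difference, and 410 were called higher for SAG with Hoxb1. On chromosome 8 they were 265 and 261 for SAG without Hoxb1 and 132 and 160 for the difference, and 262 were called higher for SAG with Hoxb1. Because the offset centres each chromosome on its own median, counts that are more alike in both directions follow from the procedure. The offset turned the sign of Cct4 (0.025), Prpf8 (0.022) and Eif5a (0.017) for Hoxb1 with SAG, of Ddx5 (0.0017) and Elavl1 (0.10) for SAG without Hoxb1, and of Canx (0.0062), Rack1 (0.095) and Ywhae (0.13) for SAG with Hoxb1. Over the named genes and comparisons it ended 24 further calls, against 9 under DESeq2 and 8 in 1 fit of all libraries. It also gave 24 new calls, against 1 and 2.

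Leaving out 1 library at a time gave, on chromosome 11, -0.147 to -0.144 (Hoxb1 with SAG), -0.078 to -0.069 (SAG without Hoxb1), -0.221 to -0.210 (SAG with Hoxb1), -0.120 to -0.111 (difference) and 0.0084 to 0.018 (NMPs). On chromosome 8 it gave 0.024 to 0.032, -0.057 to -0.044 (Hoxb1 without SAG), -0.265 to -0.256, -0.171 to -0.162 and 0.073 to 0.089. In NMPs the members called on chromosome 8 ran from 53 to 82 higher and 69 to 162 lower, and those called lower on chromosome 11 from 89 to 183. Depth limits the low genes most, and the number of libraries limits each p. No source used here says whether the libraries are separate cultures.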
